A study of Homo sapiens with 10 samples.

Results

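Cholesterol synthesis genes were followed in subsets of a breast cancer cell line sorted by the activity of the Oct4A promoter. The genes were LSS, INSIG1, HMGCS1, SQLE, IDI1 and FDFT1, and every probe set that carries the symbol of 1 of these 6 genes alone was taken. Rows were found for 4 of the 6 genes, with 8 probe sets among the 25750 of the table, in which 12083 genes are named. HMGCS1 and FDFT1 are not analysed here. The samples were 10 arrays of MDA-MB-231 cells, an established human line of basal-like breast cancer, stably transfected with pEGFP1-Oct3/4, which places GFP under the Oct4A promoter, and selected with neomycin. The Oct4hi breast cancer cells (BCCs), on 4 arrays, were those with the brightest 5% of GFP fluorescence, the Oct4med BCCs, on 2 arrays, lay between the extremes, and the Oct4low BCCs, on 4 arrays, were the dimmest 5% according to the sample labels, while the results text of the paper gives a wider gate for them. All subsets came from the same transfected and selected line, they differ in the fluorescence of the reporter, and no array of untransfected or unsorted cells was used. The RNA came from 4 different experiments according to the methods of the paper, and 100 ng of total RNA was used for each array.

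Cells build cholesterol from acetyl-CoA through mevalonate, isoprenoid diphosphates and squalene, and squalene is then closed into the ring of lanosterol and trimmed to cholesterol. Transcription of most of these enzymes is switched on by SREBP transcription factors, which are held in the endoplasmic reticulum when sterols are plentiful and are released and cut when sterols are scarce. INSIG1 is a protein of the endoplasmic reticulum that holds back the SREBP escort protein SCAP and also takes part in the degradation of HMG-CoA reductase, and it is itself an SREBP target. IDI1 interconverts the 5-carbon isoprenoid diphosphates, SQLE oxidises squalene in a rate-limiting step, and LSS closes the product to lanosterol. HMGCS1 makes HMG-CoA, and FDFT1 joins farnesyl diphosphates to squalene.

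The gene of INSIG1 lies at chr7:155297878-155310235, that of IDI1 at chr10:1039152-1056704 and that of LSS at chr21:46188446-46228774 in GRCh38.p14. Since SREBP acts at promoters, the 250 bases before the RefSeq start of INSIG1 and of LSS, the members with 1 listed start whose probe sets were tested, are given 5′ to 3′ on the strand of the gene, with TCACGTGA, the palindromic E-box letters that SREBP can bind, and ATTGG, the reverse complement of the CCAAT box, in capitals. That of INSIG1 is chr7:155297628-155297877 on the + strand and that of LSS is chr21:46228775-46229024 on the - strand.
INSIG1: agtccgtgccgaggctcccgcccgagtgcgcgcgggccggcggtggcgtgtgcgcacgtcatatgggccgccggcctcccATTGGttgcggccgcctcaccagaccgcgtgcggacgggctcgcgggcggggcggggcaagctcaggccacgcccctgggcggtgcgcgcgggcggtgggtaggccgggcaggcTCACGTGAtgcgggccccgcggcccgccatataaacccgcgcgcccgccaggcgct
LSS: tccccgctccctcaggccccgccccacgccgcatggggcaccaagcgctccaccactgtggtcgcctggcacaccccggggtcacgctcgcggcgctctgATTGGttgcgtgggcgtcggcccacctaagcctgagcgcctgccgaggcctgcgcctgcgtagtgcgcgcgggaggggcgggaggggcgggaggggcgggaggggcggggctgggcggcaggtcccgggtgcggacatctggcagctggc
The letters TCACGTGA stand 56 bases before the start of INSIG1 and are absent from this window of LSS, and 0.854% of 35116 promoter windows of the same length hold them. ATTGG stands 170 bases before the start of INSIG1 and 150 bases before that of LSS, and CCAAT or ATTGG is found in 32.0% of the windows. The letters TCACNCCAC of the classical sterol regulatory element, searched on both strands like the others, were in neither window, and 0.883% of all windows hold them. A match of letters is a description of the sequence.

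Values are log2 intensities, so that a difference of 1 is a 2-fold change, and each gene is represented by its brightest probe set. The array medians lay between 5.051 and 5.145. A probe set was tested when it reached the median of its array in at least 2 arrays, which held for 13872 probe sets and 7639 genes, and for 5 probe sets of 3 members (INSIG1, SQLE and LSS). The probe set of IDI1 and the 2 dimmer probe sets of SQLE were below the median in all 10 arrays. The median SD of a probe set among replicates was 0.12 in Oct4hi, 0.119 in Oct4med and 0.124 in Oct4low BCCs. Of 10 markers of basal or mesenchymal breast cancer lines 9 had a row and 7 were above the 75th percentile of every array, whereas the probe set of VIM listed here was below the median in all arrays. The mean log2 level of these 9 markers was 9.04 to 9.09 in Oct4hi, 9.04 to 9.05 in Oct4med and 9.14 to 9.21 in Oct4low BCCs. The mean log2 level of 9 luminal markers was 6.24 to 6.31 in Oct4hi, 6.28 to 6.37 in Oct4med and 6.47 to 6.56 in Oct4low BCCs. Of these 9, 5 were at or above the median in all arrays (EPCAM, ESR1, GATA3, MLPH and XBP1), and 3 were below it in all arrays (CDH1, AGR2 and PGR). Of 9 erythroid markers 3 had a row. Their mean log2 level was 5.77 to 5.95, 5.78 to 5.87 and 5.52 to 5.66 in the same order. Of these 3, only HBE1, an embryonic globin gene, was lowest in Oct4low BCCs, with means of 7.95, 7.89 and 7.21. GATA1 averaged 6.05 in both Oct4hi and Oct4low BCCs and was higher in Oct4med BCCs. ALAS2, below the median in all arrays, averaged 3.62, 3.39 and 3.54. Leukocyte and stromal marker lists overlapped among the subsets. A 28S rRNA control probe set, AFFX-M27830_5_at, averaged 13.57 in Oct4hi, 12.70 in Oct4med and 13.60 in Oct4low BCCs. Other probe sets of the same RNA differed less, with 11.87, 11.50 and 11.98 for AFFX-M27830_M_at and 5.21, 5.27 and 5.30 for AFFX-M27830_3_at. Another control, AFFX-HUMRGE/M10098_M_at, was lowest in Oct4low BCCs, with 13.14, 12.98 and 12.84. The part of these differences in the results was not tested, and in bulk RNA fewer cells of a type and less RNA per cell cannot be told apart.

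**Figure D1:**
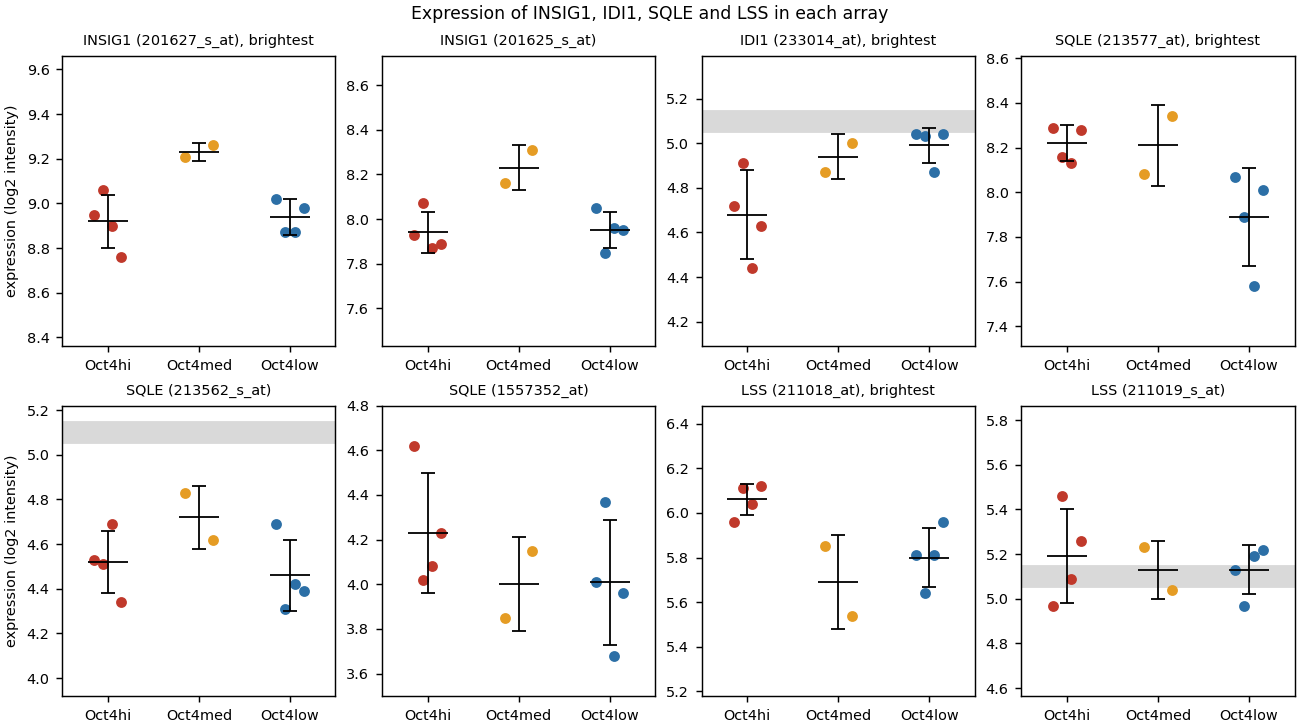
Expression of the 8 member probe sets (vertical axis, log2 intensity) in Oct4hi, Oct4med and Oct4low BCCs, with 1 point per array, bars for the mean and SD, and a grey band for the range of the array medians. INSIG1 was highest in Oct4med BCCs with both probe sets, SQLE was lowest in Oct4low BCCs with its brightest probe set, and IDI1 stayed below the grey band.

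Among the 3 tested members, each differed somewhere among the subsets, and no pair of members had the same order of means. These orders include near ties, of Oct4hi and Oct4med BCCs for SQLE and of Oct4hi and Oct4low BCCs for INSIG1. The F-test among the 3 subsets gave an adjusted p of 0.0378 for INSIG1, 0.0435 for SQLE and 0.0306 for LSS (limma, Benjamini-Hochberg over all tested probe sets), where 43.8% of all tested genes passed. INSIG1 was highest in Oct4med BCCs, SQLE was lowest in Oct4low BCCs, and LSS was highest in Oct4hi BCCs. All changes that passed the test were small, between 0.25 and 0.36 in size on the log2 scale, and every adjusted p lay between 0.03 and 0.05.

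INSIG1, the sterol sensor partner of SCAP, had 8.95, 9.06, 8.90 and 8.76 log2 units in Oct4hi BCCs, 9.21 and 9.26 in Oct4med BCCs, and 9.02, 8.87, 8.87 and 8.98 in Oct4low BCCs. Both Oct4med arrays lay above every other array, when 40.5% of all tested probe sets had no overlap between Oct4med and Oct4low BCCs and 45.2% none between Oct4hi and Oct4med BCCs, and the Oct4hi and Oct4low arrays overlapped. The mean was 8.92 ± 0.12 in Oct4hi (SD, n = 4), 9.23 ± 0.04 in Oct4med (n = 2) and 8.94 ± 0.08 in Oct4low BCCs (n = 4). Oct4med exceeded Oct4low BCCs by 0.29 (SE 0.10, 95% interval 0.08 to 0.50, limma adjusted p = 0.049), and Oct4hi minus Oct4med was -0.32 (interval -0.53 to -0.10, limma adjusted p = 0.0314). Oct4hi minus Oct4low was -0.02 (interval -0.19 to 0.15, limma adjusted p = 0.866). The second probe set, 201625_s_at, was dimmer by about 1 log2 unit and had the same order, with 7.94 ± 0.09 in Oct4hi, 8.23 ± 0.10 in Oct4med and 7.95 ± 0.08 in Oct4low BCCs (SD). Its Oct4med minus Oct4low difference of 0.28 just missed the threshold (limma adjusted p = 0.0512), and its Oct4hi minus Oct4med difference was -0.29 (limma adjusted p = 0.0363). With 1 array left out, the call of the brightest probe set against Oct4low BCCs held in 2 of 10 fits, without Oct4low replicate 1 or Oct4hi replicate 4, and that of Oct4hi against Oct4med BCCs held in 6 of 10, being lost without Oct4med replicate 1 or 2 or Oct4hi replicate 3 or 4. Without Oct4med replicate 1 or 2 the limma adjusted p against Oct4low BCCs was 0.132 or 0.158.

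SQLE, the squalene epoxidase, had 8.29, 8.16, 8.13 and 8.28 log2 units in Oct4hi BCCs, 8.08 and 8.34 in Oct4med BCCs, and 8.07, 7.89, 7.58 and 8.01 in Oct4low BCCs. Every Oct4hi array was above every Oct4low array, as was each Oct4med array. Of all tested probe sets, 33.8% had no overlap between Oct4hi and Oct4low BCCs and 40.5% none between Oct4med and Oct4low BCCs. Replicate 3 of the Oct4low BCCs was the lowest of all. Oct4hi exceeded Oct4low BCCs by 0.33 (SE 0.11, interval 0.10 to 0.57, limma adjusted p = 0.0312), a 1.26-fold change. Oct4med minus Oct4low was also 0.33 (SE 0.13, interval 0.04 to 0.61), which did not pass (limma adjusted p = 0.101). Oct4hi and Oct4med BCCs had means of 8.22 and 8.21, with an interval of -0.28 to 0.29 for their difference. Without Oct4low replicate 3 the Oct4hi minus Oct4low difference was 0.23 (limma adjusted p = 0.0726), and the call was also lost without Oct4low replicate 2 or Oct4hi replicate 1, 2 or 4, so that it held in 5 of 10 such fits. The 2 dim probe sets, 213562_s_at and 1557352_at, gave Oct4hi minus Oct4low differences of 0.06 and 0.23 and passed in no comparison when all probe sets were tested.

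LSS, the lanosterol synthase, was much dimmer, with 5.96, 6.11, 6.04 and 6.12 log2 units in Oct4hi BCCs, 5.85 and 5.54 in Oct4med BCCs, and 5.81, 5.64, 5.81 and 5.96 in Oct4low BCCs. Of the 4 Oct4hi arrays 3 were above all Oct4low arrays, and the lowest Oct4hi array met the highest Oct4low array. All 4 were above both Oct4med arrays, when 45.2% of tested probe sets had no overlap between Oct4hi and Oct4med BCCs. Oct4hi exceeded Oct4low BCCs by 0.25 (SE 0.09, interval 0.05 to 0.45, limma adjusted p = 0.0479) and Oct4med BCCs by 0.36 (SE 0.11, interval 0.12 to 0.60, limma adjusted p = 0.0317). Oct4med minus Oct4low was -0.11 (interval -0.35 to 0.13, limma adjusted p = 0.514). The second probe set, 211019_s_at, lay near the array median, and its differences of 0.07, 0.01 and 0.06 (Oct4hi minus Oct4low, Oct4med minus Oct4low, Oct4hi minus Oct4med) did not pass (limma adjusted p 0.666, 0.978 and 0.746). The mean of both LSS probe sets gave an Oct4hi minus Oct4low difference of 0.16 (limma adjusted p = 0.195). Leaving out Oct4med replicate 2, the lower of the pair, took the Oct4hi minus Oct4med difference to 0.21 (limma adjusted p = 0.23), and that call was also lost without Oct4hi replicate 2 or 4. The call against Oct4low BCCs held in 3 of 10 fits with 1 array left out, without Oct4low replicate 4 or either Oct4med array.

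IDI1, the isoprenoid isomerase, was below the array median in the only probe set found under its symbol alone. Which transcripts this probe set reads is not known here. It had 4.72, 4.91, 4.44 and 4.63 log2 units in Oct4hi BCCs, 4.87 and 5.00 in Oct4med BCCs, and 5.04, 5.03, 4.87 and 5.04 in Oct4low BCCs. Of the 4 Oct4hi arrays 3 were below every Oct4low array. When all 25727 probe sets that are not controls were tested, Oct4hi minus Oct4low was -0.32 (interval -0.54 to -0.10, limma adjusted p = 0.041), with 17.5% of those probe sets passing. Oct4med minus Oct4low was -0.06 and Oct4hi minus Oct4med was -0.26 in that fit (limma adjusted p 0.807 and 0.193). This direction was opposite to that of SQLE and LSS, at a level where every array was under its own median.

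**Figure D2:**
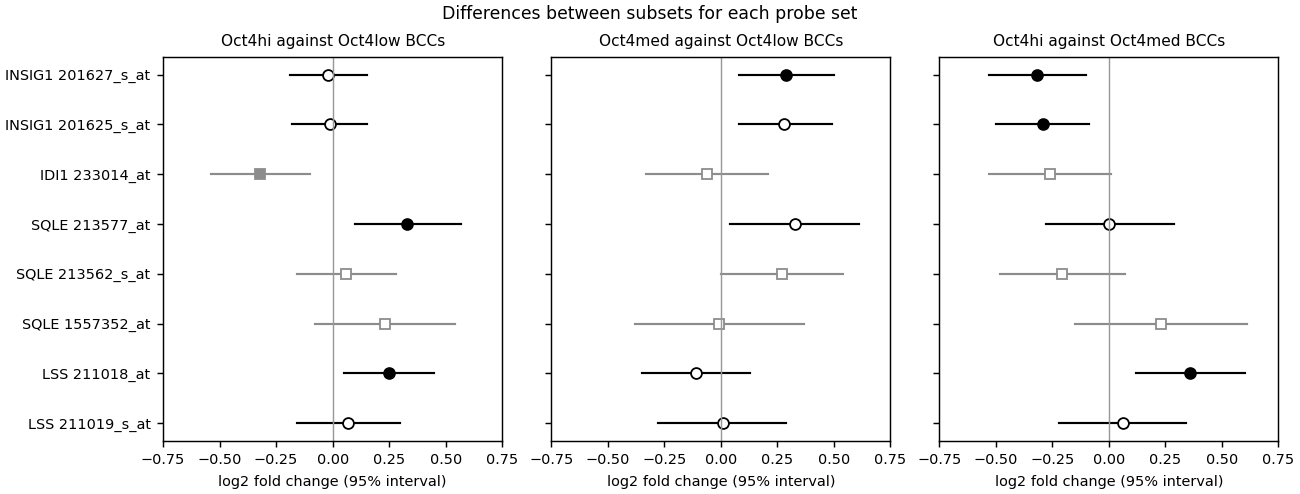
Difference between subsets (horizontal axis, log2 fold change with its 95% interval) for each of the 8 probe sets (rows), with black circles for tested probe sets, grey squares for those tested only without a filter, and filled symbols for an adjusted p under 0.05. The intervals of both INSIG1 probe sets exclude 0 only where Oct4med BCCs are compared, SQLE passes only for Oct4hi against Oct4low BCCs, and the 2 probe sets of LSS disagree.

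Counted by comparison, SQLE and LSS were higher in Oct4hi than in Oct4low BCCs, so 2 of 3 tested members passed, where 35.2% of all tested genes passed, 20.4% higher and 14.8% lower. INSIG1 alone passed for Oct4med against Oct4low BCCs, 1 of 3, where 17.4% of tested genes passed, 5.68% higher and 11.7% lower. For Oct4hi against Oct4med BCCs, LSS was higher and INSIG1 lower, where 27.8% of tested genes passed, 18.2% higher and 9.63% lower. The median difference of the 3 tested members was 0.25, 0.29 and 0.00 in these comparisons, against 0.02, 0.03 and -0.01 over all tested genes. The 3 comparisons share their arrays and are not separate experiments. With 3 members, these counts do not set the genes apart from the rest of the table, and the filter of the authors had already taken out features that changed little.

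In the rest of the sterol pathway, other enzymes were higher in Oct4hi than in Oct4low BCCs with limma adjusted p between 7.24e-05 and 0.00341. Of 17 listed genes 7 had a row and 5 were tested. ACAT2, EBP and NSDHL were higher in Oct4hi than in Oct4low BCCs, with none lower, where 20.4% of all tested genes were higher and 14.8% lower. The same 3 genes were higher in Oct4hi than in Oct4med BCCs, where 18.2% of all tested genes were higher. None passed for Oct4med against Oct4low BCCs, where 17.4% of all tested genes passed. EBP, the sterol isomerase that moves the double bond of the ring, had 9.73, 9.78, 9.74 and 9.74 log2 units in Oct4hi BCCs, 9.0 and 8.96 in Oct4med BCCs, and 9.20, 9.08, 9.23 and 9.22 in Oct4low BCCs. The lowest Oct4hi array, at 9.73, was above the highest of the others, at 9.23. Among tested probe sets, 33.8% had no overlap between Oct4hi and Oct4low BCCs and 45.2% none between Oct4hi and Oct4med BCCs. The difference was 0.57 from Oct4low (SE 0.07, limma adjusted p = 7.24e-05) and 0.77 from Oct4med BCCs (SE 0.08, limma adjusted p = 4.83e-05). Its second probe set, 202735_at, gave 0.65 and 0.87. The third and dimmest, 213789_at, gave 0.32 against Oct4low BCCs, with overlapping arrays (limma adjusted p = 0.0179), and 0.30 against Oct4med BCCs, which did not pass (limma adjusted p = 0.0672). In its brightest probe set EBP was also below Oct4low in both Oct4med arrays, when 40.5% of tested probe sets had no overlap there. That difference was -0.20 and did not pass (limma adjusted p = 0.0967), and it was 0.02 in the dimmest probe set.

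ACAT2, the cytosolic thiolase that joins acetyl-CoA units at the head of the pathway, had 11.49, 11.61, 11.49 and 11.62 log2 units in Oct4hi BCCs, 11.14 and 11.24 in Oct4med BCCs, and 11.10, 11.06, 11.09 and 11.00 in Oct4low BCCs. The Oct4hi arrays were above all others, by 0.49 over Oct4low (SE 0.07, limma adjusted p = 0.000287) and 0.36 over Oct4med BCCs (SE 0.08, limma adjusted p = 0.00853). In these comparisons 33.8% and 45.2% of tested probe sets had no overlap. NSDHL, which takes part in the removal of the methyl groups at carbon 4, averaged 8.86 ± 0.04 in Oct4hi, 8.55 ± 0.06 in Oct4med and 8.55 ± 0.05 in Oct4low BCCs (SD, n = 4, 2 and 4). It was higher in Oct4hi BCCs by 0.31 in both comparisons (limma adjusted p 0.00341 against Oct4low and 0.0143 against Oct4med BCCs), and its second probe set, 209279_s_at, gave 0.39 and 0.32. MVD, the mevalonate diphosphate decarboxylase, and TM7SF2, a sterol reductase, had Oct4hi minus Oct4low differences of 0.02 and -0.17 that did not pass (limma adjusted p 0.918 and 0.242). IDI2, a second isoprenoid isomerase, and SC5D, a sterol desaturase, were below the filter, with means of 4.75, 4.78 and 4.66 for IDI2 and 3.58, 3.67 and 3.47 for SC5D in Oct4hi, Oct4med and Oct4low BCCs.

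Of 5 tested genes of the SREBP machinery, ERLIN1 was higher and SREBF1 lower in Oct4hi than in Oct4low BCCs, 2 of 5 where 35.2% of all tested genes passed. SREBF1, which encodes the SREBP-1 factors, had 9.49, 9.47, 9.38 and 9.46 log2 units in Oct4hi BCCs, 9.82 and 9.87 in Oct4med BCCs, and 9.82, 9.86, 9.81 and 9.83 in Oct4low BCCs. The Oct4hi arrays were below all others, with differences of -0.38 from Oct4low (SE 0.06, limma adjusted p = 0.000877) and -0.39 from Oct4med BCCs (SE 0.08, limma adjusted p = 0.00344). In these comparisons 33.8% and 45.2% of tested probe sets had no overlap. INSIG2, the relative of INSIG1, averaged 7.98, 8.28 and 8.09 in Oct4hi, Oct4med and Oct4low BCCs, so that Oct4med was the highest as for INSIG1. Its Oct4hi minus Oct4med difference of -0.29 passed (limma adjusted p = 0.0201) and its Oct4med minus Oct4low difference of 0.19 did not (limma adjusted p = 0.118). ERLIN1, a partner of INSIG proteins in the endoplasmic reticulum, was higher by 0.24 in Oct4hi than in Oct4low BCCs (limma adjusted p = 0.0367), a call that held in 12 of 20 alternatives and was lost without Oct4low replicate 1, 2 or 4 or Oct4hi replicate 2 or 3. The INSIG2 call held in 15 of 20 and was lost without either Oct4med array.

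Of the 5 tested genes of the ubiquitin-dependent degradation of HMG-CoA reductase and squalene epoxidase, UBE2G2 and UBXN4 were higher and RNF139 lower in Oct4hi than in Oct4low BCCs, where 20.4% of all tested genes were higher and 14.8% lower. RNF139, a ubiquitin ligase, averaged 9.30 ± 0.07 in Oct4hi, 9.55 ± 0.03 in Oct4med and 9.61 ± 0.07 in Oct4low BCCs (SD), with differences of -0.31 against Oct4low (limma adjusted p = 0.00499) and -0.25 against Oct4med BCCs (limma adjusted p = 0.0476). The call against Oct4low BCCs held in all 20 alternatives, and that against Oct4med BCCs in 5 of 20, where of the 10 fits with 1 array left out only that without Oct4low replicate 3 kept it (adjusted p up to 0.226). UBE2G2, a ubiquitin-conjugating enzyme, was higher in Oct4hi BCCs by 0.29 against Oct4low and 0.49 against Oct4med BCCs (limma adjusted p 0.014 and 0.00387), while its second probe set, 209041_s_at, gave 0.43, which passed, and 0.31, which did not (limma adjusted p 0.00308 and 0.0519). UBXN4, which recruits the segregase p97, was higher than in Oct4low BCCs by 0.33 in Oct4hi and by 0.37 in Oct4med BCCs (limma adjusted p 0.0195 and 0.0434). The Oct4med call of UBXN4 held in 8 of 20 alternatives, and with 1 array left out it held only without Oct4med replicate 1 or Oct4hi replicate 1 or 4 (adjusted p up to 0.264). Its Oct4hi call held in 18 of 20 and was lost without Oct4low replicate 3 or Oct4hi replicate 1.

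**Figure D3:**
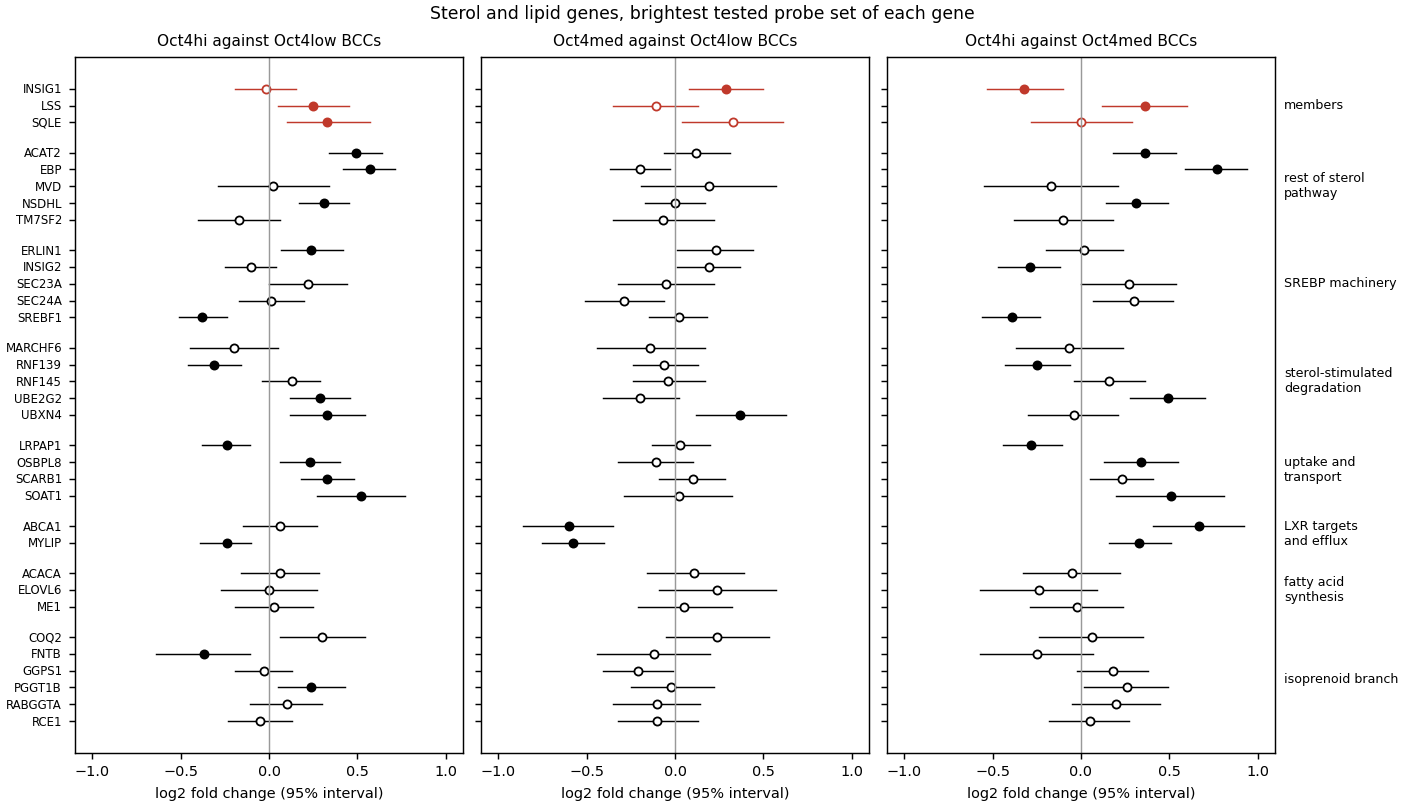
Difference between subsets (horizontal axis, log2 fold change with its 95% interval) for the brightest tested probe set of each gene (rows, grouped by list), with filled points for an adjusted p under 0.05 and the members in red. EBP, ACAT2 and NSDHL lie to the right of 0 wherever Oct4hi BCCs are compared, SREBF1 lies to the left, and ABCA1 and MYLIP lie far to the left for Oct4med against Oct4low BCCs.

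Of 4 tested genes of cholesterol uptake, storage and transport, SOAT1, SCARB1 and OSBPL8 were higher and LRPAP1 lower in Oct4hi than in Oct4low BCCs. Of all tested genes 20.4% were higher and 14.8% lower there. None of the 4 passed for Oct4med against Oct4low BCCs, where 17.4% of all tested genes passed. OSBPL8 fell outside the rule for named genes and was named after its value of 0.23 was seen. SOAT1, which stores cholesterol as esters, had 9.97, 9.89, 9.82 and 9.85 log2 units in Oct4hi BCCs, 9.19 and 9.55 in Oct4med BCCs, and 9.30, 9.25, 9.70 and 9.18 in Oct4low BCCs. All Oct4hi arrays were above the others, by 0.52 over Oct4low (SE 0.12, limma adjusted p = 0.00451) and 0.51 over Oct4med BCCs (SE 0.14, limma adjusted p = 0.0211). In these comparisons 33.8% and 45.2% of tested probe sets had no overlap. SCARB1, the HDL receptor, was higher by 0.33 than in Oct4low BCCs (limma adjusted p = 0.00347), while a dimmer probe set, 215834_x_at, gave 0.14 and did not pass (limma adjusted p = 0.397), and LRPAP1, a chaperone of the LDL receptor family, differed by -0.24 (limma adjusted p = 0.0102).

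Of 7 listed genes of the LXR target list, the genes switched on when sterols accumulate, 3 had a row and 2 were tested. Both tested genes were lowest in Oct4med BCCs. Both were lower in Oct4med than in Oct4low BCCs, where 11.7% of all tested genes were lower. Both were higher in Oct4hi than in Oct4med BCCs, where 18.2% of all tested genes were higher. ABCA1, which exports cholesterol, had 8.14, 8.22, 8.32 and 8.47 log2 units in Oct4hi BCCs, 7.50 and 7.74 in Oct4med BCCs, and 8.16, 8.34, 8.32 and 8.07 in Oct4low BCCs. Both Oct4med arrays were below every other array, with differences of -0.60 for Oct4med minus Oct4low (SE 0.12, limma adjusted p = 0.00391) and 0.67 for Oct4hi minus Oct4med (SE 0.12, limma adjusted p = 0.00192), and a second probe set, 203504_s_at, gave -0.77 and 0.89. In these comparisons 40.5% and 45.2% of tested probe sets had no overlap. MYLIP, which sends the LDL receptor to degradation, had tested probe sets that were all lowest in Oct4med BCCs, and its brightest averaged 9.49 ± 0.05 in Oct4hi, 9.16 ± 0.08 in Oct4med and 9.73 ± 0.05 in Oct4low BCCs (SD), and it differed in all 3 comparisons, by -0.24 for Oct4hi minus Oct4low, -0.58 for Oct4med minus Oct4low and 0.33 for Oct4hi minus Oct4med (limma adjusted p 0.0142, 0.000456 and 0.0114). All 5 tested probe sets of MYLIP were lower in Oct4med than in Oct4low BCCs, where 2145 of the 13872 tested probe sets were lower. Of these 5, 220319_s_at did not pass for Oct4hi against Oct4low BCCs (limma adjusted p = 0.152). For Oct4hi against Oct4med BCCs, 220319_s_at, 223129_x_at and 223130_s_at did not pass (limma adjusted p 0.0697, 0.231 and 0.0991). INSIG1, in the same arrays, was highest in Oct4med BCCs. Of the other tested members, SQLE averaged 8.21 there against 8.22 in Oct4hi BCCs, and LSS averaged lowest there, at 5.69. A link between the members and the LXR targets was not tested.

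The 3 tested genes of fatty acid synthesis, ACACA, ELOVL6 and ME1, passed in no comparison, and their differences lay between -0.24 and 0.24. Of all tested genes 35.2% passed for Oct4hi against Oct4low, 17.4% for Oct4med against Oct4low and 27.8% for Oct4hi against Oct4med BCCs. The isoprenoid branch attaches farnesyl or geranylgeranyl groups or builds ubiquinone. Of its 6 tested genes, PGGT1B was higher by 0.24 and FNTB differed by -0.37 in Oct4hi against Oct4low BCCs (limma adjusted p 0.0495 and 0.0316). None passed in the comparisons with Oct4med BCCs, which have the shares given above. With so few genes in either list, an absence of calls does not show an absence of change. The call of PGGT1B held in 9 of 20 alternatives, and with 1 array left out it held only without either Oct4med array or Oct4hi replicate 4 (adjusted p up to 0.15). That of FNTB held in 11 of 19 and was lost without Oct4low or Oct4hi replicate 1 or 2 (adjusted p up to 0.0946). FNTB was dim, with means of 4.68 in Oct4hi and 5.05 in Oct4low BCCs.

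The profiles of the members over the 10 arrays were compared. INSIG1 and LSS differed in opposite directions between Oct4hi and Oct4med BCCs. With each gene centred on its own mean, the root mean square difference between 2 members ran from 0.182 for IDI1 and INSIG1 to 0.334 for IDI1 and LSS. No reference value was set for genes that share a profile, and the median SD among Oct4hi replicates was 0.12. IDI1, which is in both of these pairs, was below the median of every array. Nearest genes were sought among the tested genes without the members. The gene nearest to INSIG1 was DIO3OS (0.055), the nearest to SQLE was GALNT1 (0.0488), the nearest to LSS was OXR1 (0.0625) and the nearest to IDI1 was CCDC149 (0.0834). None of them is in the lists of sterol genes, which hold few of the 7639 tested genes, so this says little about the members. The genes nearest to the mean of the 4 measured members were KLHL25 (0.0569), NUDT13, PRAM1, RHBDD1 and TEX26-AS1, and none of these 5 passed in any comparison. That mean was nearly flat, from -0.17 to 0.11 over the arrays, because the members differ in direction. Its nearest genes were therefore bound to change little.

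**Figure D4:**
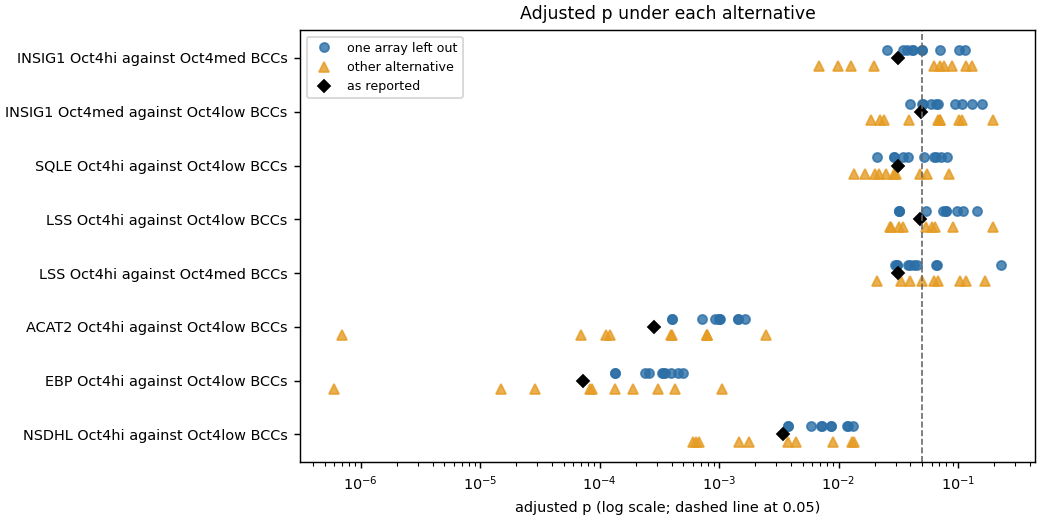
Adjusted p (horizontal axis, log scale) of 8 differences (rows) as reported, with 1 array left out and under the other alternatives, with a dashed line at 0.05. The 5 differences of INSIG1, SQLE and LSS lie on both sides of the line, and those of ACAT2, EBP and NSDHL lie to the left of it throughout.

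Under other processing, the calls of the members were lost often. SQLE for Oct4hi against Oct4low BCCs passed in 13 of 20 alternatives, INSIG1 for Oct4hi against Oct4med in 10 of 20 and for Oct4med against Oct4low BCCs in 6 of 20, and LSS in 7 of 19 against Oct4low and 10 of 19 against Oct4med BCCs, and all 5 differences kept their direction in each. The Oct4hi against Oct4low differences of ACAT2, EBP, NSDHL, SREBF1 and SOAT1 passed in all 20 alternatives.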

How the data were processed

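Total RNA of sorted MDA-MB-231 subsets was hybridized to Affymetrix U133 Plus 2.0 arrays. Before deposit the authors, as their methods state, corrected the intensities for background, took log2 values, applied RMA normalization with BRB-Array Tools and removed features near background or with little change, and the deposited values are log2 intensities. Probe sets were named through the annotation of the array platform, in which 18683 of 25750 probe sets carry 1 symbol, 799 several and 6268 none. Old symbols were not resolved further.

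From these log2 values, probe sets at or above the median of their array in at least 2 arrays were tested, without the 23 control probe sets. One limma fit (limma 3.58.1, R 4.3.3) estimated a mean per subset from all 10 arrays, two-sided, with Benjamini-Hochberg adjustment over the 13872 tested probe sets and a threshold of 0.05. The step was tested on simulated data. A gene was read from its brightest probe set. Named were all members, all measured genes of the rest of the sterol pathway, the 3 genes of each other list with the smallest F-test p, and the genes with the nearest profiles, where the 4 measured members replaced the 6 of the rule. The members and lists were chosen with earlier results of these data known. The labels call the replicates biological. Precision is limited by how few arrays there are, and most of all by the 2 Oct4med arrays. Promoter sequences are those of RefSeq on GRCh38.p14, where INSIG1, IDI1 and LSS matched by symbol, SQLE did not, and 2 are printed.

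Alternatives were no filter, a filter at the 75th percentile, quantile normalization again, a common median, a prior with an intensity trend fitted robustly, array weights, only the 2 subsets compared, the replicate number as a block, an ordinary t-test with equal variances, the mean of the probe sets of a gene, and each array left out in turn. The ordinary t-test has no random variance model, which the methods of the paper name and to which limma's moderated test is closer.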

Additional observations from a re-analysis of the deposited data

Results flagged for a closer look

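The probe set of IDI1 in Oct4low replicate 3 had 4.87 log2 units, far from the other 3 Oct4low arrays at 5.03 to 5.04. It stood out by its gap to the nearest array divided by the range of the group, in a search over 16 groups of 4 arrays (8 member probe sets in Oct4hi and in Oct4low BCCs), of which chance marks about 1 in 20, and all of these values are below the array median.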

How the results depend on the processing

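No difference that passed reversed its direction under any alternative run. The number of members higher in Oct4hi than in Oct4low BCCs, 2 as reported, was 1 without a filter, with the stricter filter, after quantile normalization, with the trend and robust prior and with the mean of probe sets. It was 0 with the ordinary t-test, and 0 to 2 with 1 Oct4hi or Oct4low array left out. The number lower, 0 as reported, was 1 (IDI1) without a filter. For Oct4med against Oct4low BCCs, the 1 member reported as higher became 2 after quantile normalization. It became 0 without a filter, with a common median, array weights, only the 2 subsets or the ordinary t-test, and 0 to 1 with 1 Oct4hi or Oct4low array left out. For Oct4hi against Oct4med BCCs, 1 higher and 1 lower became 0 and 0 without a filter, with array weights, with only the 2 subsets and with the ordinary t-test. The number higher was also 0 with the stricter filter and the mean of probe sets, and the number lower was 0 with a common median. Both were 0 to 1 with 1 Oct4hi or Oct4low array left out. The number that passed the F-test, 3 as reported, was 0 without a filter and 0 to 3 with 1 array left out. The rest of the sterol pathway, run after seeing the data, kept 3 higher in Oct4hi than in Oct4low BCCs with each array left out, had 1 lower in Oct4med BCCs with the stricter filter and with the trend, and had 1 higher for Oct4hi against Oct4med BCCs after quantile normalization and 1 to 3 with 1 array left out. With the replicate number as a block, 1 member was higher in Oct4hi than in Oct4low BCCs, 0 passed in the other comparisons and 0 passed the F-test. Same-numbered arrays did not all deviate together (correlations from -0.264 to 0.277), and the labels tie no number to an experiment, so the numbers were not used to pair the arrays. Over all tested probe sets, Oct4med against Oct4low BCCs gave 720 rises and 2145 falls, and 1385 and 1809 after quantile normalization. For Oct4hi against Oct4med BCCs these were 2518 and 1195, and 1718 and 1620. Apart from the filters and the arrays left out, which change what is tested, the cause was not tested.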
